A study of Mus musculus with 45 samples.

Results

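Livers of 5 mice gavaged with TCDD at 30 µg/kg were compared directly with livers of 5 mice gavaged at 10 µg/kg, gene by gene, to separate genes that still moved over this last dose step from genes whose change was already complete below it. These 10 livers were chosen by their dose labels from 45 in the series, which holds 9 groups of 5 mice, given sesame oil vehicle or 1 of 8 doses of TCDD. All animals were female C57BL/6 mice that entered the experiment on postnatal day 28, were treated every 4 days, and were killed at 28 days. The sample labels name an ovariectomy and daily treatment as well, whereas the schedule given here is that of the study's methods. RNA was taken from whole liver, so a change in a transcript per cell and a change in the number of cells that carry it cannot be told apart.

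TCDD, a persistent dioxin, is a ligand of the aryl hydrocarbon receptor (AhR), a ligand-activated transcription factor held in the cytoplasm by chaperones. The bound receptor enters the nucleus, pairs with ARNT and binds dioxin response elements, which share the core GCGTG, beside genes of foreign-compound metabolism such as *Cyp1a1*. With repeated treatment the mouse liver accumulates fat and inflammatory cells and loses part of the transcript repertoire of mature hepatocytes, changes that follow the direct induction.

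Library totals on genes ran from 15007410 to 29226126 reads at 10 µg/kg and from 11767284 to 25625466 reads at 30 µg/kg. The 12 hepatocyte markers summed to 121000 to 145000 CPM (counts per gene scaled to the TMM-adjusted library size) at 10 µg/kg and 113000 to 165000 CPM at 30 µg/kg. On the first principal component of the 1000 most variable genes, which held 33.5% of the variance, the 10 µg/kg mice lay between -18.52 and -1.65. At 30 µg/kg, 4 mice lay between 10.15 and 30.44, and mouse 4 lay at -9.58, inside the range of the lower dose. Mouse 4 was the 30 µg/kg animal nearest to the lower dose in 46 of the 75 genes and 25 of the 32 genes described next, and mouse 5 was the 10 µg/kg animal nearest to the higher dose in 38 and 17. Counts of genes, and named genes whose call turned on mouse 4, are therefore given with and without it. Leaving out the mouse nearest to the other dose tends to widen the difference, so calls gained without mouse 4 are no added support.

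**Figure D1:**
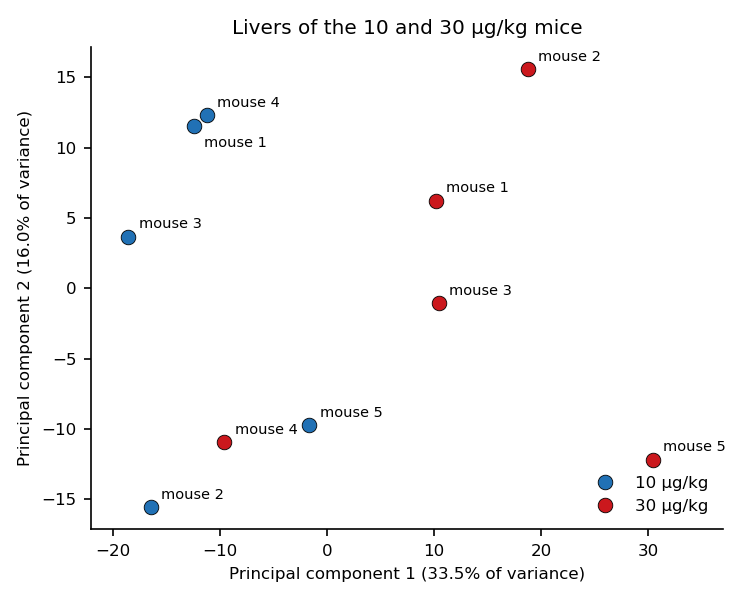
First and second principal components of log2 CPM in the 5 mice at 10 µg/kg (blue) and the 5 at 30 µg/kg (red), with the percent of variance on each axis. Along the first component 4 of the 30 µg/kg mice lie to the right of every 10 µg/kg mouse, and 30 µg/kg mouse 4 lies among the lower dose at -9.58.

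Of 17464 genes tested, 75 (0.429%) were higher and 32 (0.183%) lower at 30 than at 10 µg/kg at an adjusted p under 0.05 in edgeR's quasi-likelihood test. At least a 2-fold difference, with which a gene is called a differentially expressed gene (DEG), was reached by 57 (0.326%) of the higher genes and 13 (0.0744%) of the lower ones. At an unadjusted p under 0.05 there were 651 higher (3.73%) and 669 lower (3.83%) genes. The 75 genes had a median log2 fold change of 1.65, and 53 of them averaged under 1 CPM in vehicle livers, with 7 that had no read in any vehicle mouse. The 32 genes had a median of 105 CPM in vehicle livers, and their median log2 fold change was -0.79. The levels of all tested genes in vehicle livers are not given here for comparison. More than 4 reads in any 1 mouse admitted a gene, so genes near 0 in vehicle could enter through a high dose. Such genes leave little room for a fall. The preceding step, from 3 to 10 µg/kg, gave 96 higher (0.55%) and 41 lower (0.235%) genes in the same fit, and it shares the 10 µg/kg mice.

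The higher count rested less on single animals than the lower count. It was 114 without 30 µg/kg mouse 4 and between 52 and 77 without any other mouse. The lower count was 164 without 30 µg/kg mouse 4, whereas it was 18, 13 and 16 without 30 µg/kg mice 1, 2 and 5, and 20 without 10 µg/kg mouse 1 or mouse 3. Lower DEGs numbered 26 without 30 µg/kg mouse 4 and 8 without 30 µg/kg mouse 1, 2 or 5. With library totals alone in place of TMM factors, 101 genes were higher and 19 lower, and with only the 10 mice in the fit 62 were higher and 6 lower. The share of higher genes among those that passed thus went from 70.1% to 84.2% and 91.2%. It went the other way, to 60.3%, in the DESeq2 Wald test, and to 41.0% without 30 µg/kg mouse 4, where lower genes outnumbered higher ones.

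The largest increase was that of *Ecel1*, which encodes a membrane metalloprotease related to endothelin-converting enzyme and best known from neurons (chromosome 1, 87147655 to 87156521, GRCm38). The 10 µg/kg mice had 1.4, 0.369, 0.380, 0.870 and 1.61 CPM, and the 30 µg/kg mice 12.7, 14.7, 12.4, 9.53 and 23.9 CPM. Every mouse of the higher dose thus stood above every mouse of the lower one, with means of 14.7 ± 5.48 against 0.926 ± 0.571 CPM (SD, n = 5 each). The log2 fold change was 3.90 ± 0.40 (SE; adjusted p = 5.92e-07), while vehicle and 3 µg/kg livers averaged 0.0303 and 0.0358 CPM.

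*Nbl1*, which encodes a secreted antagonist of bone morphogenetic proteins (chromosome 4, 139082284 to 139092993), followed with a log2 fold change of 3.45 ± 0.38 (adjusted p = 3.72e-07). It measured 0.714, 0.369, 0.380, 0.609 and 1.58 CPM at 10 µg/kg and 13.3, 7.61, 5.94, 4.07 and 11 CPM at 30 µg/kg. The groups did not overlap, and the lower dose was still close to the 0.534 CPM of the 3 µg/kg livers. *Mep1a*, the alpha subunit of meprin, a metalloprotease of kidney and gut brush borders, rose by a log2 fold change of 3.10 ± 0.53 from 0.123 to 1.06 CPM (adjusted p = 0.00101).

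Genes of phagocytes and scavenger receptors were among the 12 largest increases. These 12 were taken from genes that passed with at least 10 mean reads and no overlap of groups. *Mmp12*, the macrophage elastase, had 0.909, 0.316, 0.824, 1.04 and 1.05 CPM at 10 µg/kg and 3.52, 17.4, 4.84, 1.11 and 6.17 CPM at 30 µg/kg, and the lowest of the latter, mouse 4, was close to the lower dose. Its log2 fold change was 2.96 ± 0.48 (adjusted p = 0.000254). *Gpnmb*, a glycoprotein of lysosome-rich phagocytes (chromosome 6, 49036546 to 49070929), rose from between 1.26 and 4.07 CPM to between 7.63 and 32.9 CPM, without overlap, at a log2 fold change of 2.56 ± 0.41 (adjusted p = 0.000254). *Cd163l1*, which encodes a scavenger receptor of the CD163 family, went from 0.620 to 4.12 CPM at 2.65 ± 0.38 (adjusted p = 3.54e-05).

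The 16 macrophage markers summed to 346 to 523 CPM at 10 µg/kg and 222 to 628 CPM at 30 µg/kg, ranges that overlap, and *Gpnmb* was the single member that rose. The median log2 fold change of the 16 was 0.33. *Trem2*, a receptor of lipid-handling macrophages, was at 0.292 and 0.828 CPM (log2 fold change 1.44 ± 0.48, adjusted p = 0.234), and passed without 30 µg/kg mouse 4, in which it was 0.111 CPM (adjusted p = 0.0373). What part macrophage number had in the rise of *Mmp12*, *Gpnmb* and *Cd163l1* was not tested.

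The remaining genes among the 12 largest increases have roles in channels, scaffolds and signalling. *Trpv4*, a calcium channel that responds to swelling and lipids (chromosome 5, 114622152 to 114658421), measured 4.87, 1.53, 2.92, 1.91 and 3.05 CPM at 10 µg/kg and 22.7, 15.9, 9.34, 7.80 and 18.4 CPM at 30 µg/kg, again without overlap (log2 fold change 2.35 ± 0.31, adjusted p = 4.73e-06). *Mdfi*, an inhibitor of MyoD-family transcription factors, rose from 1.21 ± 0.439 to 5.92 ± 1.33 CPM, and 30 µg/kg mouse 4 was its highest sample at 8.13 CPM. *Fbxl16* (2.48), *Fam83a* (2.43), *Mpp2*, a membrane scaffold protein (2.43), and *Sapcd2*, a regulator of spindle orientation (2.27), completed the 12 with the log2 fold changes in brackets. All 12 kept their call under each alternative in which they were tested, 15 for *Mep1a*, which a stricter count filter removed, and 16 for the others, with adjusted p-values of at most 0.0481.

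Among the 75, 60 genes had all 5 mice at 30 µg/kg above all 5 at 10 µg/kg. This arrangement was found for 204 (1.17%) of all tested genes. It fixes the exact permutation p at 0.007937, the smallest that 252 splits of 10 mice allow. The 60 genes had passed the same contrast in the same mice, so neither the p nor the separation adds support. Under the rule for naming the largest changes, no overlap of groups was itself a condition. *Spint1*, an inhibitor of the epithelial serine protease matriptase (chromosome 2), was 1 of the 60. It measured between 0.843 and 1.44 CPM at 10 µg/kg and between 3.45 and 5.54 CPM at 30 µg/kg, and rose by 1.83 ± 0.21 on the log2 scale (adjusted p = 5.92e-07). It is outside the rule for named genes and was chosen after its values were seen.

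**Figure D2:**
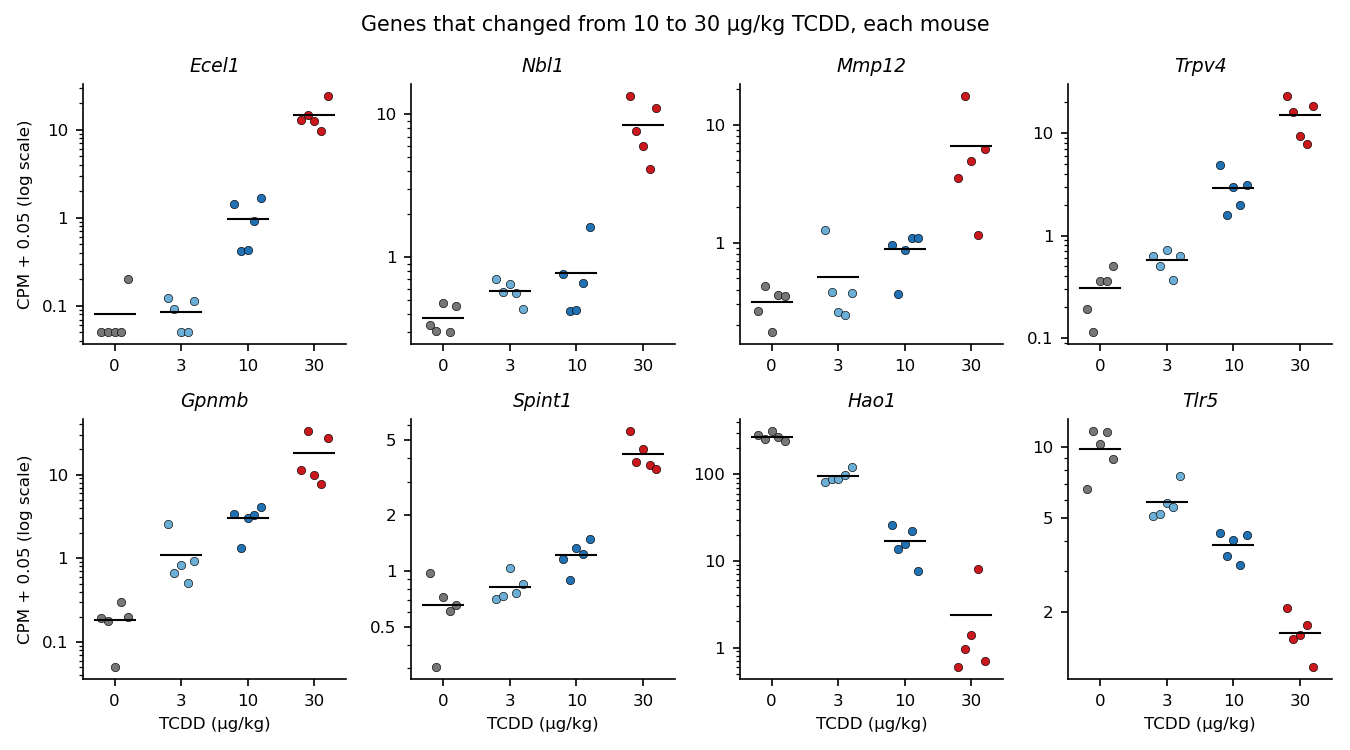
CPM plus 0.05 on a log scale in each of 5 mice given vehicle (0) or TCDD at 3, 10 or 30 µg/kg, for 6 genes that were higher and 2 that were lower at 30 than at 10 µg/kg. Points are mice and the bar is their mean. Ecel1 averages 14.7 CPM at 30 µg/kg against 0.926 at 10 µg/kg, and in Hao1 30 µg/kg mouse 4 stands at 8.08 CPM above the other 4.

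The largest decrease was in *Hao1*, the peroxisomal glycolate oxidase of hepatocytes (chromosome 2), which falls outside the rule for named genes because 1 mouse of each group crossed. At 10 µg/kg it measured 26.2, 13.7, 15.6, 22.4 and 7.54 CPM. At 30 µg/kg it measured 0.541, 0.916, 1.34, 8.08 and 0.641 CPM, so mouse 4 alone lay above the lowest 10 µg/kg mouse. The log2 fold change was -2.90 ± 0.37 (adjusted p = 3.68e-06) and -4.25 without 30 µg/kg mouse 4, and the descent had begun at 273 CPM in vehicle and 96.0 CPM in 3 µg/kg livers.

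*Sult3a1*, an amine sulfotransferase with close paralogs whose shared reads may have been dropped in counting, had the same shape. It was at 13.0, 18.8, 15.8, 20 and 3.16 CPM at 10 µg/kg and at 0.676, 0.687, 1.59, 8.41 and 0.401 CPM at 30 µg/kg, and 30 µg/kg mouse 4 again lay inside the lower dose. Its log2 fold change was -2.57 ± 0.50 (adjusted p = 0.00289) and -3.94 without that mouse. *Car3*, an abundant carbonic anhydrase of hepatocytes and fat, fell from 624 ± 263 to 240 ± 74.6 CPM (log2 fold change -1.38 ± 0.22, adjusted p = 0.000264), also with overlap and also chosen after its values were seen. With only the 10 mice in the fit the adjusted p-values were 0.0567 for *Hao1*, 0.146 for *Sult3a1* and 0.0727 for *Car3*.

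Of the 32 lower genes, 13 had all 5 mice at 30 µg/kg below all 5 at 10 µg/kg, which held for 125 (0.716%) of all tested genes. The largest of these decreases was in *Adgrf1*, an adhesion G protein-coupled receptor (chromosome 17, 43270329 to 43324737), with 2.79, 1.69, 2.15, 2.70 and 2.39 CPM at 10 µg/kg and 0.766, 0.572, 1.13, 0.223 and 0.561 CPM at 30 µg/kg. In this gene mouse 4 was the lowest sample of all 10, and the log2 fold change was -1.77 ± 0.36 (adjusted p = 0.00579). *Tlr5*, the receptor for bacterial flagellin (chromosome 1, 182954788 to 182976044), went from between 3.13 and 4.28 CPM to between 1.12 and 2.03 CPM, and had averaged 9.77 CPM in vehicle and 5.80 CPM in 3 µg/kg livers (log2 fold change -1.25 ± 0.21, adjusted p = 0.000595). *Adgrf1* and *Tlr5* kept their calls under all 16 alternatives.

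*Car1*, a carbonic anhydrase that is most abundant in red cells, fell from between 2.87 and 7.35 CPM to between 1.24 and 2.84 CPM (log2 fold change -1.42 ± 0.30, adjusted p = 0.00850). Its call ended without 10 µg/kg mouse 3 (adjusted p = 0.0556), and the 7 erythroid markers summed to 95 to 173 CPM at 10 µg/kg and 86.8 to 184 CPM at 30 µg/kg. *Npr2*, the receptor for C-type natriuretic peptide, fell from 33.7 ± 6.52 to 18.5 ± 3.74 CPM (-0.86 ± 0.18, adjusted p = 0.00930), and its adjusted p was 0.0521 and 0.0505 without 30 µg/kg mice 1 and 5. *Ablim3*, an actin-binding protein, fell from 7.47 ± 1.28 to 3.22 ± 1.04 CPM (-1.20 ± 0.28, adjusted p = 0.0229), a call that 5 of the 10 single mice could end, with adjusted p-values up to 0.143 without 30 µg/kg mouse 1.

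Smaller falls completed the 12 largest decreases among genes that passed with at least 10 mean reads and no overlap of groups. *Rarres2*, which encodes the adipokine chemerin, fell from 348 ± 33.6 to 224 ± 58.2 CPM, *Car8*, an inactive relative of the carbonic anhydrases, from 69.7 ± 3.30 to 47.1 ± 10.9 CPM, and *Pla1a*, a secreted phospholipase, from 27.5 ± 1.85 to 19.5 ± 4.19 CPM. Their log2 fold changes were -0.64, -0.56 and -0.50, and without 30 µg/kg mouse 2 the adjusted p-values were 0.0612, 0.0570 and 0.0774, and for *Car8* 0.0505 without mouse 5. *Nectin3*, a cell adhesion molecule, fell by 0.48 on the log2 scale, *Prr16* by 0.57, *Zfp128* by 0.84 and *Zeb1*, a repressor of epithelial genes, by 0.40. For *Zfp128* 6 single mice and for *Zeb1* 10 µg/kg mouse 1 and 30 µg/kg mouse 5 ended the call, with adjusted p-values up to 0.186 without 10 µg/kg mouse 4 and 0.0751 without 10 µg/kg mouse 1. With only the 10 mice in the fit *Car1*, *Rarres2*, *Car8*, *Pla1a*, *Prr16*, *Nectin3*, *Zfp128* and *Zeb1* did not pass, with adjusted p-values from 0.0519 to 0.237.

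The AhR battery, 12 direct targets of the receptor, bears on the question of which responses were already complete. All 12 had a step estimate above 0, with a median log2 fold change of 0.35 against -0.0018 over all genes, and 3 of the 12 rose (*Tiparp*, *Nqo1* and *Nfe2l2*) while none fell, beside 0.429% higher and 0.183% lower among all tested genes. *Ugt1a6b*, at 0.01, ranged from -0.08 to 0.1 over the 16 alternatives of processing and of mice left out. Its exons, like those of *Ugt1a6a*, overlap those of other genes of the Ugt1a locus. Reads wholly inside shared exons would be ambiguous and left out of the counts.

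*Cyp1a1*, the classic marker of receptor activation, showed little of its response in this step. It measured 6282, 7990, 6970, 5688 and 6342 CPM at 10 µg/kg and 7283, 6020, 7281, 9064 and 8489 CPM at 30 µg/kg. The ranges overlapped and the log2 fold change was 0.20, with a 95% interval from -0.94 to 1.33 (adjusted p = 0.991). Vehicle livers averaged 7.5 ± 6.33 CPM and 3 µg/kg livers 5851 ± 469 CPM, and the step made up 2.0% of the log2 change from vehicle to 30 µg/kg.

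The exact permutation test of *Cyp1a1* over the 10 mice gave p = 0.175. *Cyp1a2*, which metabolizes aromatic amines, ranged from 13080 to 16670 CPM at 10 µg/kg and from 15490 to 19860 CPM at 30 µg/kg (log2 fold change 0.25, interval -0.02 to 0.51, adjusted p = 0.706). *Ahrr*, the repressor that feeds back on the receptor, ranged from 43.0 to 79.5 and from 56.3 to 93.2 CPM (0.41, -0.15 to 0.97, adjusted p = 0.831). The upper bounds do not reach a further doubling for *Cyp1a2* and *Ahrr*, and a doubling of *Cyp1a1* lies inside its interval. That interval is from the fit of all dose groups, vehicle included. With only the 10 mice in the fit the *Cyp1a1* estimate was again 0.20, and no interval is given for that fit. Their means were 6654 ± 874 CPM at 10 µg/kg and 7627 ± 1186 CPM at 30 µg/kg (SD). No 30 µg/kg mouse had as much as a doubling of the *Cyp1a1* level of any 10 µg/kg mouse.

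*Cyp1b1*, the third member of the family, behaved otherwise in the single mice. It measured 685, 988, 892, 713 and 926 CPM at 10 µg/kg and 1714, 1215, 1277, 1769 and 1284 CPM at 30 µg/kg, so every mouse of the higher dose was above every mouse of the lower dose (exact permutation p = 0.007937). In the fit of all 45 mice its log2 fold change of 0.79 had an interval from -0.15 to 1.73 and an adjusted p of 0.766. In the fit of the 10 mice alone it passed (adjusted p = 0.0311), the only such gain in the battery.

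*Tiparp*, the TCDD-inducible poly(ADP-ribose) polymerase that restrains the receptor (chromosome 3), rose. It had 88.7, 108, 77.2, 71 and 118 CPM at 10 µg/kg and 174, 164, 189, 130 and 192 CPM at 30 µg/kg, without overlap, at a log2 fold change of 0.87 ± 0.16 (adjusted p = 0.00200). The step held 24% of its log2 change from vehicle to 30 µg/kg. This call held under all 16 alternatives, with adjusted p-values from 0.000124 to 0.0264.

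*Nqo1*, the quinone reductase induced by both AhR and Nrf2, rose from between 33.9 and 49.1 CPM to between 50.6 and 87.5 CPM (log2 fold change 0.73 ± 0.18, adjusted p = 0.0334), and *Nfe2l2*, the gene of Nrf2 itself, from between 142 and 174 CPM to between 179 and 245 CPM (0.37 ± 0.09, adjusted p = 0.0346). Neither group pair overlapped, with the step holding 36.4% and 30.1% of the log2 change. Leaving out 1 mouse ended the call of *Nqo1* for 7 of the 10 mice, with the adjusted p at most 0.190, without 30 µg/kg mouse 1, and that of *Nfe2l2* likewise for 7, at most 0.222 without the same mouse. In the fit of the 10 mice alone neither passed (adjusted p = 0.0553 and 0.164). *Aldh3a1* was at 0.266 and 0.620 CPM, a mean of 9.1 reads, and its log2 fold change of 1.15 did not pass (adjusted p = 0.571), and *Ugdh* (0.32), *Gsta1* (0.26) and *Ugt1a6a* (0.21) did not pass either.

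None of the 6 genes of the receptor complex passed, with estimates from -0.29 to 0.24 and each 95% interval inside a 2-fold change. None of the 12 Nrf2 antioxidant genes passed, with a median log2 fold change of 0.09.

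**Figure D3:**
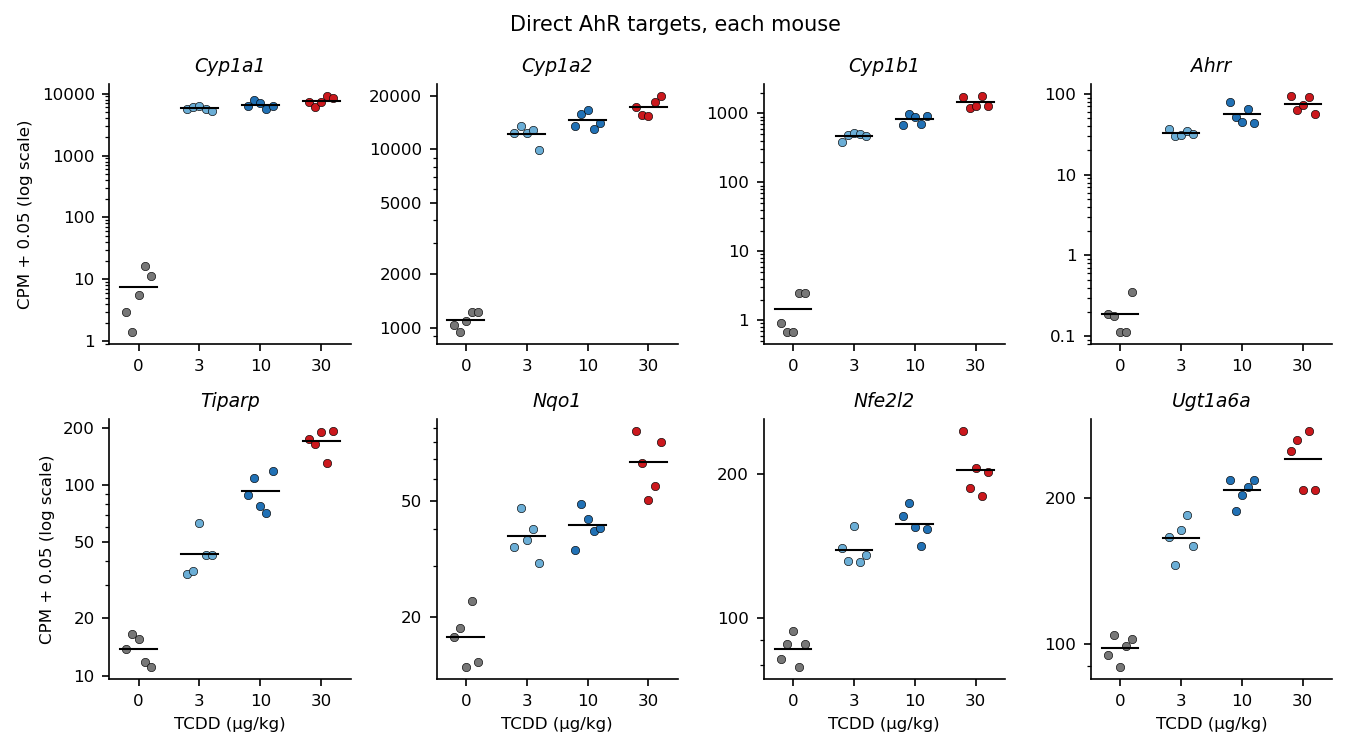
CPM plus 0.05 on a log scale in each of 5 mice given vehicle (0) or TCDD at 3, 10 or 30 µg/kg, for 8 of the 12 genes of the AhR battery. Points are mice and the bar is their mean. Cyp1a1 lies near 5851 CPM at 3 µg/kg and 7627 CPM at 30 µg/kg, whereas Tiparp goes from 43.7 to 92.6 and 169.6 CPM.

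Promoters were examined for the dioxin response element core because it is the letters the receptor dimer reads. The 250 bases before the start were taken from RefSeq on GRCm38.p6 for a direct target that did not pass (*Cyp1a1*, chr9:57697363-57697612, plus strand), a direct target that rose (*Tiparp*, chr3:65528197-65528446, plus strand), the gene with the largest rise (*Ecel1*, chr1:87156357-87156606, minus strand), *Spint1* (chr2:119237110-119237359, plus strand) and the gene with the largest fall (*Hao1*, chr2:134554353-134554602, minus strand). Each is written from 5′ to 3′ on the strand of its gene, with GCGTG or its reverse complement CACGC in capitals.

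*Cyp1a1*: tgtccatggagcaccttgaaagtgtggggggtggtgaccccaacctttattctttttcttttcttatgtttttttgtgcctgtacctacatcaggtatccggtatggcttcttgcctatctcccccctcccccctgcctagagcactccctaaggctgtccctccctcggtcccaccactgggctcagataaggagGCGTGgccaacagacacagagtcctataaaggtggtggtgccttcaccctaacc
*Tiparp*: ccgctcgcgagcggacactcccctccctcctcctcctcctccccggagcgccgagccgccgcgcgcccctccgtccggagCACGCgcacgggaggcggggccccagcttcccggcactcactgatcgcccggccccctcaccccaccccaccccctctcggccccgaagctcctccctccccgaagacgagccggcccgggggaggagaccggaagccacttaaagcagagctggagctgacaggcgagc
*Ecel1*: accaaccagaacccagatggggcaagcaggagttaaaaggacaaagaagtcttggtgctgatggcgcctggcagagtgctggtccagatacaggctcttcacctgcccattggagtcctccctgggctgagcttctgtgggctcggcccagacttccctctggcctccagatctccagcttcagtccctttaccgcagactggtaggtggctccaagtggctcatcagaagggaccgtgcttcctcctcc
*Spint1*: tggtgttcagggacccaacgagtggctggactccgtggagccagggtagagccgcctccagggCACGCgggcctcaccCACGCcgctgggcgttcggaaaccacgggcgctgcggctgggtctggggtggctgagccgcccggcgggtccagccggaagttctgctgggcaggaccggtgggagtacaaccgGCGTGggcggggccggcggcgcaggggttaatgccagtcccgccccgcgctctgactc
*Hao1*: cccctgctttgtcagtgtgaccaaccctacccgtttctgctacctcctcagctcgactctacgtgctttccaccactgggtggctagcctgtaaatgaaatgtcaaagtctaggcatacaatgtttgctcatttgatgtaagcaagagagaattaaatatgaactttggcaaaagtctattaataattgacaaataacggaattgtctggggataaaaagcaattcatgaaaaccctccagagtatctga

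The core occurred 1 time in the windows of *Cyp1a1* and *Tiparp*, 3 times in that of *Spint1*, and in neither of the other windows. Over all RefSeq windows of this length 28.2% held it on either strand. The share was 50% in the AhR battery (5 of 10 windows, with 10 of 12 genes matched by symbol), 31.8% in 66 windows of the higher genes (55 of 75 matched) and 18.5% in 27 windows of the lower genes (21 of 32 matched), beside 41.2% for all tested genes. These shares describe these letters in these windows only.

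The genes that responded at the lower dose were then followed over the step. At 3 µg/kg 376 genes (2.15%) were DEGs above vehicle and 143 (0.819%) below it, chosen from mice that take no part in the step. Over the step the 376 had a median log2 fold change of 0.32, with 85.1% of them above 0, while the 143 had a median of -0.26, with 75.5% below 0. Over all tested genes the median was -0.0018 and 49.4% were above 0.

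By mouse, the 376 genes stood a median of 0.26, 0.37, 0.31, -0.03 and 0.40 log2 units above the mean of the 10 µg/kg group in 30 µg/kg mice 1 to 5. Mouse 4 alone thus showed no such excess. Of the 376 genes 15 (3.99%) rose over the step, against 0.429% of all tested genes, and none fell, with 3 lower at an unadjusted p under 0.05, and of the 143 genes 4 (2.8%) fell, against 0.183% of all, and none rose, with 2 higher at an unadjusted p under 0.05. For 298 of the 376 the 95% interval of the step included 0. For 37 of the 376, counted whether or not the interval included 0, it lay within a 1.5-fold change either way. For most of the 376, then, neither a change nor its absence could be shown with 5 mice per dose.

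Among genes with a mean of at least 10 reads, the 5 largest increases at 3 µg/kg were *Cyp1a1*, *Cyp1b1*, *Nptx1*, *Ahrr* and *Ovol1*, and none of them passed over the step. *Nptx1*, a neuronal pentraxin, went from 0.248 CPM in vehicle livers to 84.1, 158.9 and 234.6 CPM at 3, 10 and 30 µg/kg (step log2 fold change 0.56, interval -0.10 to 1.23). *Ovol1*, an epithelial transcription factor, went from 0.0101 to 1.55, 5.87 and 10.9 CPM, and although its 10 and 30 µg/kg mice did not overlap, the adjusted p was 0.0685 (0.89, interval 0.41 to 1.36), 0.0336 in DESeq2 and 0.0246 without 30 µg/kg mouse 4. The largest decrease among them, in *Serpina7*, the thyroxine-binding globulin, took it from 48.2 to 1.63 CPM, and it then stood at 1.71 and 0.996 CPM (-0.74, interval -1.74 to 0.25).

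The 15 early genes that rose again included *Tiparp*, *Nqo1*, *Gpnmb*, *Col9a2*, *Rcan3*, *Msrb3*, *Tgfb2*, *Mmp13* and *Ugt1a7c*, whose exons are shared within the Ugt1a locus. *Rcan3*, a regulator of calcineurin, went from 2.02 CPM in vehicle livers to 9.87, 17.4 and 29.4 CPM at 3, 10 and 30 µg/kg (step 0.75, adjusted p = 0.00469), and *Msrb3*, a methionine sulfoxide reductase, from 8.79 to 23.4, 42.5 and 65.8 CPM (step 0.63, adjusted p = 0.0119). The call of *Msrb3* ended without 10 µg/kg mouse 2 or 4 or 30 µg/kg mouse 1, with adjusted p-values of 0.0581, 0.0687 and 0.0623. That of *Tgfb2* (step 1.11, adjusted p = 0.0263) was lost under 7 of 16 alternatives, with an edgeR adjusted p up to 0.21, without 30 µg/kg mouse 1. Of the 75 higher genes 20 had passed in the same direction at 3 µg/kg and 55 had not passed. Of the 32 lower genes 19 had passed in the same direction and 13 had not passed. The share of all tested genes that passed at 3 µg/kg, without the 2-fold condition, is not given here for comparison. At 3 µg/kg 15 of the 75 were DEGs above vehicle, against 2.15% of all tested genes. Likewise 4 of the 32 were DEGs below vehicle, against 0.819% of all. No gene had passed in the opposite direction.

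**Figure D4:**
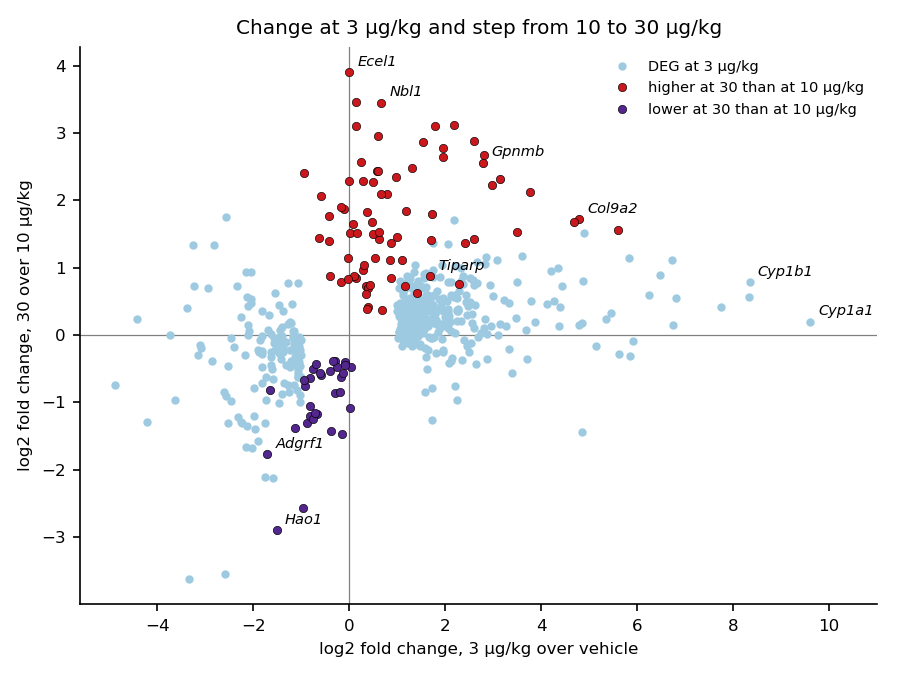
Log2 fold change of 3 µg/kg over vehicle (x axis) against that of 30 over 10 µg/kg (y axis), 2 contrasts without a mouse in common. Light points are DEGs at 3 µg/kg, red points the 75 genes higher and purple points the 32 lower at 30 than at 10 µg/kg. Cyp1a1 sits at 9.60 and 0.20, and Ecel1 at 0.00 and 3.90.

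The change over this step was compared with that over the one before it as the signed difference between the 2 log2 changes, last minus first, each over about the same ratio of doses. The steps share the 10 µg/kg mice, so a high or low value there moves both in opposite ways. For 3 genes (0.0172%) the difference passed, and in each it was negative. At an unadjusted p under 0.05 the difference was negative for 238 genes and positive for 168, and no positive one passed in edgeR or DESeq2.

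*Col9a2*, a chain of cartilage collagen IX (chromosome 4), went from 1.17 ± 0.133 CPM at 3 µg/kg to 23.1, 27.1, 55.6, 13.6 and 55 CPM at 10 µg/kg and 94.8, 99.5, 123, 172 and 85.3 CPM at 30 µg/kg. It rose in both steps, by 4.89 and 1.72 on the log2 scale, a difference of -3.16 ± 0.60 (adjusted p = 0.0340), although DESeq2 called neither the last step (adjusted p = 0.526) nor the difference. *Marveld3*, a protein of tight junctions, rose by 2.99 in the first step, and its 0.84 in the last did not pass in edgeR with all mice (adjusted p = 0.0729). That last step passed under 5 of 16 alternatives. Among them were DESeq2 (0.0131), edgeR with only the 10 mice (0.0289) and edgeR without 30 µg/kg mouse 4 (0.0464). The difference was -2.16 ± 0.40 (adjusted p = 0.0340).

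*Gpx6*, a glutathione peroxidase of olfactory tissue, had estimates of opposite sign, 1.16 for the first step (adjusted p = 0.0637) and -1.47 for the last. It measured 3.85 ± 0.533 CPM in vehicle and 3.46 ± 0.517 CPM in 3 µg/kg livers, then 3.54, 10.6, 7.54, 4.96 and 12.2 CPM at 10 µg/kg, and 3.16, 2.12, 2.51, 4.07 and 2.08 CPM at 30 µg/kg. The 10 µg/kg mice were spread over the range of the other groups and above it. The difference between the steps was -2.63 ± 0.51 (adjusted p = 0.0441), and the call of its fall over the last step (adjusted p = 0.00969) ended without 10 µg/kg mouse 5 (adjusted p = 0.0568) or 30 µg/kg mouse 2 (0.0522).

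The count of 3 fell to 0 without 10 µg/kg mouse 3 or without 30 µg/kg mouse 1, 2, 3 or 5, and to 1 without 10 µg/kg mouse 5. *Kcnj8*, a subunit of ATP-sensitive potassium channels, had one of the smallest p-values for a positive difference without passing (1.39, adjusted p = 0.564). It was at 3.02 and 2.26 CPM in vehicle and 3 µg/kg livers, between 1.90 and 2.74 CPM at 10 µg/kg and between 4.57 and 7.05 CPM at 30 µg/kg. The last step itself passed (1.39 ± 0.20, adjusted p = 2.27e-05), and the change from vehicle to 10 µg/kg did not (-0.43, adjusted p = 0.151).

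Gene lists of liver functions and cell types were described by their counts and medians. Of 474 listed genes tested, in 25 pathway and 10 marker lists, 8 were higher and 3 lower, against 0.429% and 0.183% of all tested genes. Without 30 µg/kg mouse 4 these numbers were 18 and 17, beside 114 higher and 164 lower among all 17459 genes then tested. The 8 were *Tiparp*, *Nqo1*, *Nfe2l2*, *Mmp12*, *Mmp13*, *Lum*, *Fgf21* and *Gpnmb*, and the 3 were *Apoh*, *Cyp2j5* and *Sult3a1*. The higher count was 4 without 30 µg/kg mouse 2, and the lower count was 1 without 10 µg/kg mouse 2 or 3 or any of 30 µg/kg mice 1, 2, 3 and 5.

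Matrix genes and the AhR battery were the lists with most members past the test. Of 25 genes of matrix remodelling 3 rose and none fell, with 24 estimates above 0 and a median of 0.45, where 49.4% of all tested genes were above 0 and 0.429% were higher. *Mmp13*, an interstitial collagenase, measured between 0.761 and 2.22 CPM at 10 µg/kg and between 2.67 and 10.9 CPM at 30 µg/kg (log2 fold change 1.80 ± 0.35, adjusted p = 0.00304). *Lum*, the collagen-binding proteoglycan lumican, went from 17.6 ± 2.94 to 31.5 ± 7.04 CPM (0.84 ± 0.18, adjusted p = 0.00994), and 30 µg/kg mouse 4, at 19.8 CPM, was inside the lower group. The adjusted p-values without 30 µg/kg mouse 2 were 0.0583 and 0.0576, and for *Lum* 0.0512 without 10 µg/kg mouse 1.

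The 14 fibrillar and other collagens had 13 estimates above 0 and a median of 0.46, and none passed, although 7 were higher at an unadjusted p under 0.05, against 3.73% of all tested genes. *Col1a1*, the alpha 1 chain of type I collagen, measured 16.0, 12, 15.2, 17.1 and 19.5 CPM at 10 µg/kg and 28.2, 47.2, 29.4, 12.1 and 44.6 CPM at 30 µg/kg. Mouse 4 was the lowest but 1 of the 10, and the other 4 exceeded every 10 µg/kg mouse (1.01 ± 0.31, adjusted p = 0.159). Without mouse 4, 5 collagens passed, all higher, *Col1a1* at an adjusted p of 0.0211 and *Col6a3* at 0.0333, which with all mice was at 0.0522 in edgeR and 0.0186 in DESeq2. The 10 stellate cell markers, which summed to 479 to 562 CPM at 10 µg/kg and 545 to 658 CPM at 30 µg/kg, had a median of 0.08, and their part in the matrix genes was not tested.

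Of 17 tested genes of the integrated stress and unfolded protein response 1 rose. *Fgf21*, a hormone that the stressed liver releases, had 7.43, 2.21, 2.98, 4.52 and 3.47 CPM at 10 µg/kg and 17.8, 35.5, 16.1, 2.73 and 17.6 CPM at 30 µg/kg. Mouse 4 lay within the lower dose, and the log2 fold change was 2.10 ± 0.44 (adjusted p = 0.00849), or 1.70 with an adjusted p of 0.0894 without 30 µg/kg mouse 2. *Psat1* and *Asns*, enzymes of serine and asparagine synthesis, had estimates of 1.74 and 1.67 (adjusted p = 0.0533 and 0.107) and passed without mouse 4 (0.00494 and 0.0257). Both also passed without 10 µg/kg mouse 1 (0.0104 and 0.0137), and *Psat1* in DESeq2 (0.0286). Over the 16 alternatives the estimates went as low as 1.07 for *Psat1* and 0.99 for *Asns*, with edgeR adjusted p-values up to 0.591 and 0.772. The median of the list was -0.01.

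Lists of hepatocyte functions lay mostly below 0, with few members past the test. Among 28 constitutive Cyp2 and Cyp3 enzymes 24 estimates were below 0, the median was -0.26, 10 were lower at an unadjusted p under 0.05, against 3.83% of all tested genes, and *Cyp2j5*, an arachidonic acid epoxygenase, fell, from 590 ± 59.2 to 434 ± 99.2 CPM (-0.44 ± 0.11, adjusted p = 0.0332). *Apoh*, or beta-2-glycoprotein I, was the 1 of 12 apolipoprotein and lipoprotein assembly genes that fell, from 1852 ± 157 to 1423 ± 261 CPM (-0.38 ± 0.09, adjusted p = 0.0296). Most single mice could end these 2 calls, with adjusted p-values up to 0.187 for *Cyp2j5* without 30 µg/kg mouse 5 and 0.181 for *Apoh* without 30 µg/kg mouse 2.

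*Cyp2c38*, of a family with close paralogs, measured 107, 172, 172, 131 and 168 CPM at 10 µg/kg and 52.1, 46.6, 78.3, 182 and 51.2 CPM at 30 µg/kg. Mouse 4 was the highest of the 10 and the other 4 mice of its group were the lowest. With all mice the estimate was -0.87 (adjusted p = 0.0660 in edgeR and 0.0306 in DESeq2), and without mouse 4 it was -1.4 (adjusted p = 3.17e-06, edgeR). *Otc*, the ornithine transcarbamylase of the urea cycle, had the same form, at -0.41 (adjusted p = 0.0509, and 0.0224 in DESeq2) with mouse 4 and -0.55 (0.000546) without it. *Slco1a1*, an organic anion uptake transporter, had between 0.561 and 17.8 CPM at 10 µg/kg and between 0.0902 and 1.34 CPM at 30 µg/kg, and its estimate of -3.32 ± 1.11 did not pass in edgeR (adjusted p = 0.228) and passed in DESeq2 (0.0225). *Abcc4*, an efflux transporter, was at 7.79 ± 2.36 and 18.4 ± 7.64 CPM (1.24, adjusted p = 0.0691), and passed without 30 µg/kg mouse 4 (0.0112) and in DESeq2 (0.0275).

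No member passed in the lists of bile acid synthesis (median -0.28), de novo lipogenesis (-0.23), gluconeogenesis (-0.17), cholesterol synthesis (-0.14), heme synthesis (-0.12), the circadian clock (-0.11), fatty acid oxidation (-0.09) or acute phase proteins (-0.08). Without 30 µg/kg mouse 4, *Cyp27a1* and *Cyp7b1* of bile acid synthesis, *Dgat2* of lipogenesis, *Tm7sf2* of cholesterol synthesis and *Ghr*, the growth hormone receptor, were lower, as were 4 of the 28 Cyp2 and Cyp3 enzymes, 2 apolipoprotein genes and 2 sulfotransferases. With all mice no member passed among 30 cell cycle genes, of which 27 had estimates above 0 with a median of 0.56 and 1, *Tk1*, was lower without mouse 4, nor among 17 chemokines (median 0.48), 7 MHC class II genes (0.49) or 16 interferon-stimulated genes (0.05). The 14 lymphocyte markers summed to 25.6 to 31.9 CPM at 10 µg/kg and 19.4 to 39 CPM at 30 µg/kg, and the 7 neutrophil markers to 3.58 to 7.86 and 3.45 to 10.5 CPM. In the exocrine pancreas list *Cpa1*, *Pnlip* and *Prss2* had no read in any of the 10 livers, and none of the endothelial, biliary and adipocyte markers passed.

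**Figure D5:**
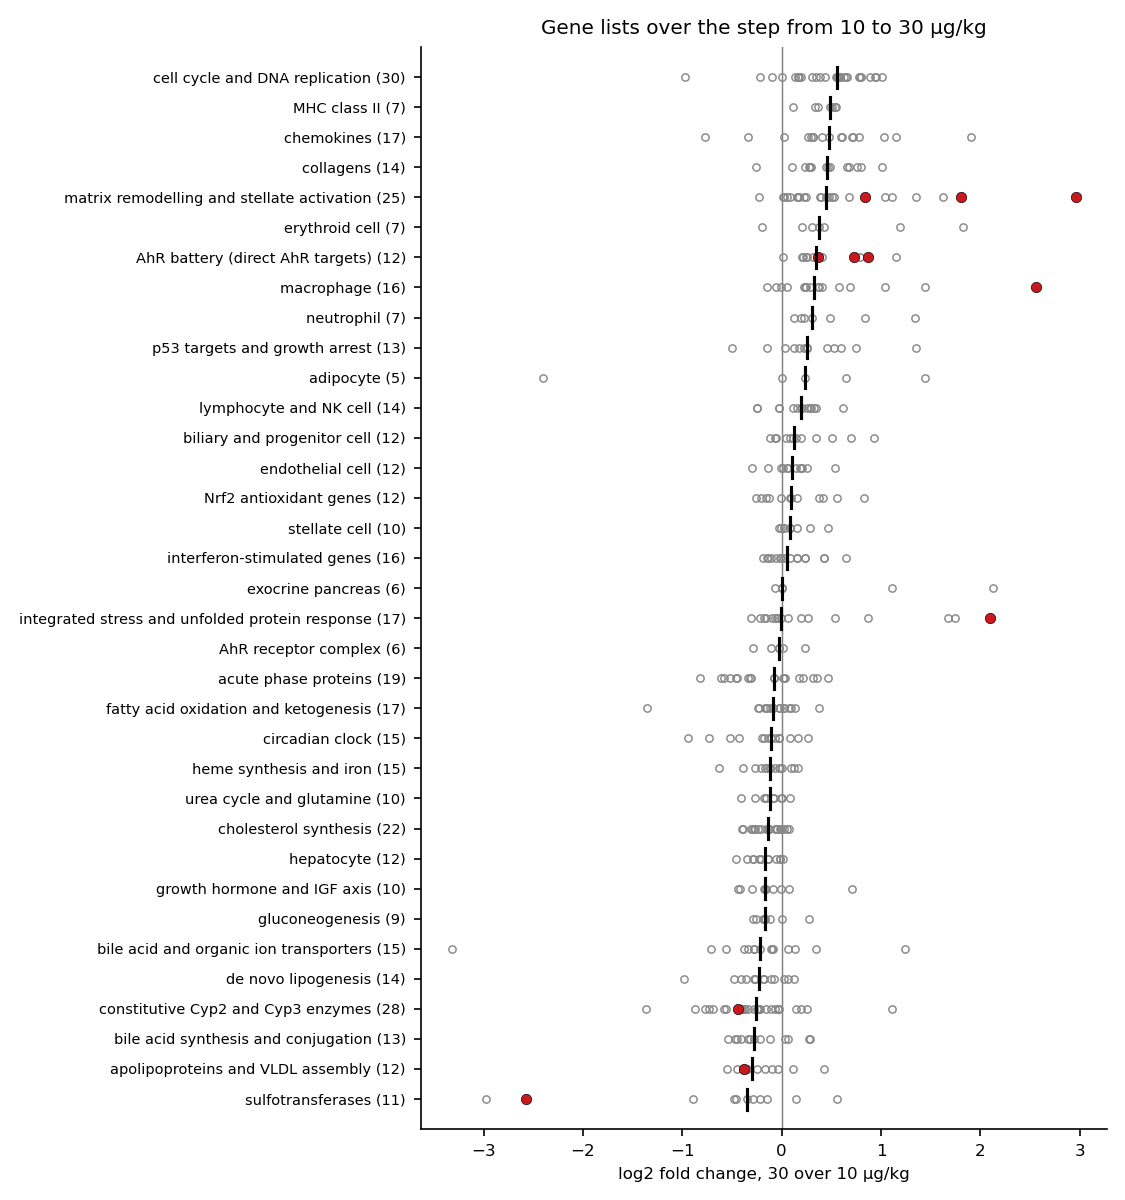
Log2 fold change of 30 over 10 µg/kg for each member (open points) of 35 gene lists, with the number of genes tested in brackets and the lists ordered by their median (black bars). Red points are members that passed at an adjusted p under 0.05. The lists with most such members are matrix remodelling (3 of 25) and the AhR battery (3 of 12).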

How the data were processed

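Whole-liver RNA of 45 mice was sequenced by the authors. Per the labels and the study's methods, reads were aligned to GRCm38 with TopHat 1.4.1 and assigned to genes with HTSeq 0.6.1. SAMtools 0.1.19 and FastQC 0.11.2 are also named. The deposited values are raw counts per gene, and the strand setting of the counting is not given in the sources used here. Libraries were sequenced in pools that the labels do not assign, so values within pools could not be given. Rows that name no gene were left out: in the 10 mice reads on no feature came to 9.25% to 12.15%, ambiguous reads to 1.65% to 2.07%, and alignments that were not unique to 8231611 to 26251445 per library. Symbols and positions came from GENCODE vM21 (37607 of 39179 identifiers matched).

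Genes with more than 4 reads in any mouse (17464) entered 1 edgeR 4.0.16 quasi-likelihood fit of all 45 mice, with TMM factors and a coefficient per group, in R 4.3.3. The contrasts were 30 against 10 µg/kg, its difference from the step from 3 to 10 µg/kg, and 3 µg/kg against vehicle. P-values were adjusted by Benjamini-Hochberg over all genes tested. CPM are scaled to the TMM-adjusted library size, SE is the log2 fold change over the root of F, and the two-sided exact permutation test used log2(CPM + 0.5). Mice are separate animals.

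Genes are named by a rule: the 12 largest increases and decreases that passed with at least 10 mean reads and no overlap of groups, the AhR battery, up to 4 members of each other list, 5 genes per direction of the difference between steps, and the 5 largest changes each way at 3 µg/kg. Members and lists were chosen with earlier results of these data known. On simulated counts of 17047 genes for the step, 80% of 100 2-fold and 99% of 100 4-fold changes were recovered, with 9 false calls. These rates describe the simulated counts only and are not the power of the test over all genes. No rate is given for genes with few reads, or for groups in which a mouse lies near the other dose. Alternatives were DESeq2 1.42.0 and its size factors, no normalization factors, other count filters, only the 10 mice, and each mouse left out.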

Additional observations from a re-analysis of the deposited data

Results flagged for a closer look

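In 8 of 158 groups of 5 mice tested (5.06%), 1 mouse stood apart from the other 4 by Dixon's criterion at the 95% level, and chance alone marks about 1 group in 20. At 30 µg/kg, mouse 4 was the high sample for *Hao1* (8.08 CPM, next 1.34), *Sult3a1* (8.41 CPM, next 1.59) and *Cyp2c38* (182 CPM, next 78.3), and mouse 2 for *Mmp13* (10.9 CPM, next 4.89). At 10 µg/kg, mouse 5 was the high sample for *Nbl1* (1.58 CPM, next 0.714), *Col6a3* (17.0 CPM, next 10.7) and *Ugt1a7c* (4.07 CPM, next 1.90), and mouse 1 for *Slco1a1* (17.8 CPM, next 5.31). The log2 change over the last step minus that over the step before it was negative for *Marveld3* (-2.16), *Col9a2* (-3.16) and *Gpx6* (-2.63) by the test of the difference itself. The last step of *Gpx6* was -1.47 after an estimate of 1.16, and both steps use the 10 µg/kg mice.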

How the results depend on the processing

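Of the 79 genes followed by name, 56 passed over the step. 25 of these kept their call under every alternative that tested them (15 for *Mep1a*, 16 for the others) and 31 lost it under at least 1, none with a change of direction, and 12 of the others passed under at least 1. The higher count ranged from 52 to 114 with 1 mouse left out. The lower count was 19 without normalization factors, 6 with only the 10 mice and 56 in DESeq2, and 13 to 164 with 1 mouse left out. Lower DEGs numbered 3 with only the 10 mice and 8 to 26 with 1 mouse left out, and negative differences between the steps 0 to 4. Listed genes that were higher numbered 5 with only the 10 mice and 4 to 18 with 1 mouse left out. Those that were lower numbered 1 without normalization factors, with only the 10 mice and with a minimum of 1 read, 6 in DESeq2, and 1 to 17 with 1 mouse left out. The median of the genes lower at 3 µg/kg was -0.17 without normalization factors, which moved the median of all genes to 0.084, and -0.33 to -0.24 with 1 mouse left out. *Ugt1a6b* ranged from -0.08 to 0.1. The cause of these shifts was not tested. No paired analysis was possible because replicate numbers only follow sample order.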

Other observations

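The genes described here were chosen after their values were seen and stand for no list. *St14*, which encodes matriptase, the protease that the product of *Spint1* inhibits, had between 0.369 and 0.842 CPM at 10 µg/kg and between 1.06 and 3.78 CPM at 30 µg/kg, and rose by a log2 fold change of 1.87 ± 0.33 (adjusted p = 0.000722, edgeR). *F2rl1*, the protease-activated receptor 2, had between 1.22 and 1.78 CPM and between 2.95 and 6.04 CPM (1.52 ± 0.29, adjusted p = 0.00272). *Ap1m2*, an adaptor subunit of polarized sorting in epithelia, had between 0.696 and 3.75 CPM and between 5.93 and 10.5 CPM (2.06 ± 0.33, adjusted p = 0.000231). In none of these genes did the doses overlap, and 3 µg/kg livers averaged 0.542, 0.348 and 0.137 CPM. The 12 biliary and progenitor markers summed to 98.2 to 107 CPM at 10 µg/kg and 106 to 157 CPM at 30 µg/kg, and their part in these genes was not tested.

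*Duox1*, a hydrogen peroxide-producing oxidase, and *Duoxa1*, its maturation factor, are neighbours on chromosome 2 and had no read in any vehicle mouse. *Duoxa1* had between 0.0870 and 0.632 CPM at 10 µg/kg and between 1.14 and 1.76 CPM at 30 µg/kg (2.13 ± 0.42, adjusted p = 0.0115, edgeR), a call kept under all 16 alternatives. *Duox1* averaged 8.5 reads over the 10 mice, and its rise of 2.67 ± 0.57 (adjusted p = 0.0241) was lost in DESeq2 (adjusted p = 0.288), with only the 10 mice, and without 10 µg/kg mouse 1, 2 or 4 or 30 µg/kg mouse 1 or 2 (adjusted p up to 0.0916). *Htra1*, a secreted serine protease, went from between 1.95 and 2.98 CPM to between 5.85 and 12.5 CPM (1.68 ± 0.22, adjusted p = 4.73e-06).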
